A study of Mus musculus with 4 samples.

Results

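The genes described here are 10 genes of lipoprotein assembly in the liver of diet-induced obese (DIO) mice: the apolipoprotein genes Apoa1, Apoa2, Apoa4, Apoa5, Apob, Apoc2, Apoc3 and Apoe, together with Mttp and Sort1. They were taken by gene symbol. Their 19 probes were all the non-control probes with these symbols among the 41174 probes of an Agilent whole mouse genome array, which name 26582 genes. Liver RNA came from male C57BL/6J mice that were 8 weeks old at purchase, weighed at least 40 g after 14 weeks on a high-fat diet. All mice were first acclimatized, for 2 weeks by the labels and for a shorter time, with daily intranasal saline, by the study's methods. Over the following 11 days, while the diet went on, they received 2 µL intranasally once a day. The treated mice received 1 nmol of galanin-like peptide (GALP), a hypothalamic peptide that lowers food intake and body weight, and the control mice received saline. GALP was dissolved with 5% α-cyclodextrin. RNA of the 8 control mice was pooled, by the methods into a single pool, although the labels also give the control RNA of each array a weight loss group. It was taken here as 1 pool. RNA of the treated mice formed 2 pools, 1 of the 4 mice with greater weight loss (the greater-loss pool) and 1 of the 4 mice with less weight loss (the less-loss pool). Each GALP pool was set against the control pool on 2 arrays with exchanged dyes, so the study holds 4 arrays of 1 slide and no value for a single mouse. All values below are log2 ratios of the GALP pool over the control pool unless another quantity is named.

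Very-low-density lipoprotein (VLDL) carries triglyceride from the liver to other tissues. Its frame is apolipoprotein B, to which the microsomal triglyceride transfer protein (the product of Mttp) adds lipid in the endoplasmic reticulum. Sortilin, the product of Sort1, binds apolipoprotein B and directs its traffic. The smaller apolipoproteins move between particles. Apolipoprotein A-I and A-II form high-density lipoprotein (HDL). Apolipoprotein C-II activates lipoprotein lipase, C-III inhibits clearance of triglyceride-rich particles, A-V promotes it, and apolipoprotein E is the ligand with which remnants bind hepatic receptors.

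Between 40.5% and 46.7% of spots per array channel were well above background, and no spot of the 10 genes carried a saturation mark. All 6 of the hepatocyte markers found on the array (of 7 listed) were well above background in all 8 channels (4 arrays with 2 dyes each). Their median log2 ratio was 0.13 in the greater-loss pool and -0.01 in the less-loss pool. Over both pools the single markers ran from -0.38 to 0.17. Of the member probes, 16 of 19 were well above background in all 8 channels, and each of the 10 genes had at least 1 such probe. The other 3 probes were of Sort1.

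The 60-base probes below are shown because the results turn on what each of them reads. Positions are on mouse build mm9, as printed in the scanner files. Apoa4 has 1 probe (chr9:46049661-46050404, plus strand), whose placement spans 744 bases of genome for 60 bases of probe, so that it reads across a splice junction. Apoa1 (chr9:46037921-46037980, plus strand) and Apoe (chr7:20281732-20281791, minus strand) each have 1 probe printed on 10 spots of every array. The Apoc3 probes (chr9:46041353-46041412 and chr9:46041363-46041422, both minus strand) share 50 bases, given in capitals, and are not independent readings. The brightest Apob probes (chr12:8023134-8023193 and chr12:8023194-8023253, plus strand) lie end to end. Sort1 probe 4 (chr3:108157150-108159198, plus strand) also spans a junction and had the lowest ratio of the set. Each of the 8 printed probes had at least 1 reading frame without a stop codon.
Apoa4: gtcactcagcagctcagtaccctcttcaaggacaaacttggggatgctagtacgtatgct
Apoa1: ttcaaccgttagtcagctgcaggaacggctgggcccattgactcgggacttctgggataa
Apoe: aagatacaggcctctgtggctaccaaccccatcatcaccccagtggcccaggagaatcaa
Apoc3 probe 1: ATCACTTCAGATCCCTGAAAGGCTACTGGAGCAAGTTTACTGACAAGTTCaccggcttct
Apoc3 probe 2: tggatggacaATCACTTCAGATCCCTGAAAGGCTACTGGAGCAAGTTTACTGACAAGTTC
Apob probe 1: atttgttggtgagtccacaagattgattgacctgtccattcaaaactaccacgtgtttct
Apob probe 2: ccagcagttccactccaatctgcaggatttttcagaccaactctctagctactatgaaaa
Sort1 probe 4: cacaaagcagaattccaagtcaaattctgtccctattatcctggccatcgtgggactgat

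The first comparison asked which of these genes differed between GALP and saline in both pools. None of the 19 probes passed the rule of the study's methods, read here as a Feature Extraction p-value under 0.01 with 1 direction on all 4 arrays and, in each pool, a fold above 1.5 or below 0.75. Over all 41037 probes with a value on every array, 24 passed as higher (0.0585%) and 54 as lower (0.132%). With the p-value left out of the rule, 1 member probe passed as lower, Sort1 probe 4 near background, against 0.375% of all probes as higher and 0.877% as lower. Without Sort1, the 15 probes of the other 9 genes, all well above background in all channels, lay between 0.916-fold and 1.13-fold of control when both pools were averaged (median log2 ratio -0.03). Their 60 single-array ratios ran from -0.55 to 0.44, and 1 of these had a Feature Extraction p-value under 0.01. Over all 14453 probes with signal in all channels, the 5th and 95th percentiles of the mean log2 ratio were -0.33 and 0.29, and all 15 lay between them.

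In the second test limma set both pool ratios against 0. It called 0 of the 19 probes at an adjusted p under 0.05, and 0 of all 41037 (0%), where the smallest adjusted p was 0.374. At an unadjusted p under 0.05 it passed 4 member probes. They were the probe of Apoa4, 1 probe each of Apoa5 and Apob, and a Sort1 probe near background. Among the 16 member probes with signal in all channels, 3 had such a p, against 20.5% of all 14453. For 12 of these 16 probes the 95% limma interval of the mean ratio lay wholly inside 0.75-fold to 1.5-fold, as it did for 59.5% of all probes with signal. The intervals of Apoa1, Mttp, Apob probe 4 and Sort1 probe 1 reached past that band, so for these 4 a change of that size was not excluded. Both tests take the control as 1 pool, so the spread between control mice enters neither.

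**Figure D1:**
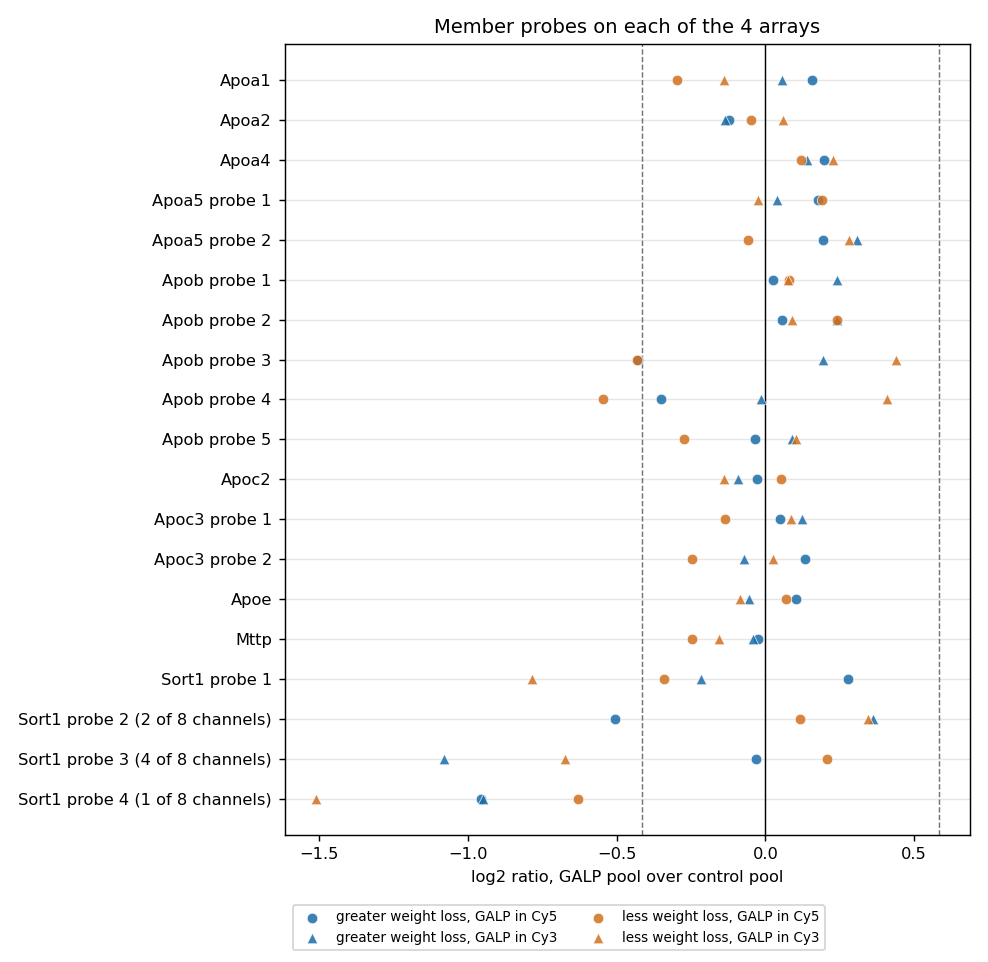
Log2 ratio of GALP over control (x axis) of each of the 19 member probes (rows, brightest probe of a gene first) on the 4 arrays; colour gives the pool, shape the dye of the GALP RNA, and the dashed lines the folds 0.75 and 1.5. Apoa4 lies above 0 and Mttp below 0 on all 4 arrays, Apoa1 is split by pool, Apob probes 3 and 4 by dye, and the widest scatter belongs to Sort1, whose bracketed rows give the channels well above background.

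**Figure D2:**
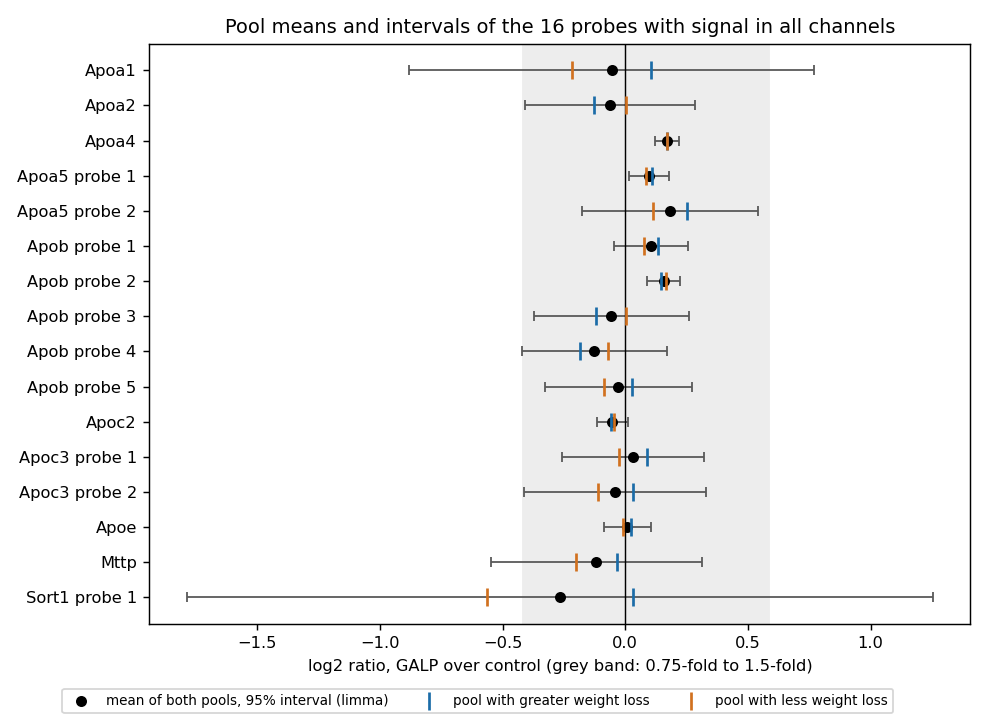
Mean log2 ratio of both pools (black point) with its 95% limma interval, and the ratio of each pool (coloured bars), for the 16 probes with signal in all channels; the grey band marks 0.75-fold to 1.5-fold. The interval lies inside the band for 12 probes; Sort1 probe 1 has the widest interval, followed by Apoa1.

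Of the HDL apolipoproteins, Apoa1 encodes the main structural protein of HDL. Its log2 ratios in the greater-loss pool were 0.16 with GALP in Cy5 and 0.06 with GALP in Cy3, and in the less-loss pool they were -0.30 and -0.14. Both arrays of the first pool were thus above 0 and both of the second below 0, with pool means of 0.11 and -0.22. The mean over the pools was -0.06 ± 0.23 (SD, n = 2 pools), with a limma 95% interval of -0.88 to 0.77 (adjusted p = 0.993).

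The replicate spots of Apoa1 showed how repeatable each array's ratio was. In the greater-loss pool all 8 usable spots were above 0 with GALP in Cy5 (lowest 0.08, highest 0.23), and 6 of 9 with GALP in Cy3 (lowest -0.08, highest 0.15). In the less-loss pool all 9 usable spots were below 0 with GALP in Cy5 (lowest -0.38, highest -0.22), and all 10 with GALP in Cy3 (lowest -0.22, highest -0.05). The SD between spots of 1 array was 0.04 to 0.09, against a median of 0.08 among the 106 probes with signal that had at least 8 usable spots on every array. Spots of 1 array share 1 hybridisation and measure neither the labelling nor the mice. The hepatocyte markers had medians of 0.13 and -0.01 in these pools, and their part in the Apoa1 difference was not tested.

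**Figure D3:**
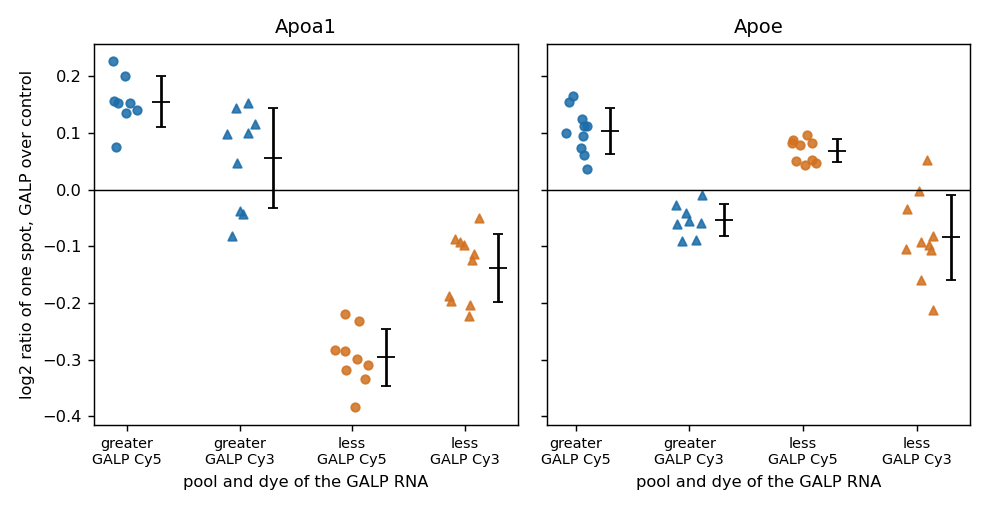
Log2 ratio of single spots (y axis) for Apoa1 and Apoe on each array (x axis: pool and dye of the GALP RNA), 8 to 10 usable spots per array; the black bars give the mean and SD of the spots. Apoa1 spots separate by pool, and Apoe spots separate by the dye of the GALP RNA, with means of 0.10 and 0.07 in Cy5 and of -0.05 and -0.08 in Cy3.

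Apoa2 encodes the next most abundant HDL protein. Its ratios were -0.12 and -0.13 in the greater-loss pool and -0.05 and 0.06 in the less-loss pool. The second pool straddled 0. The mean was -0.06 ± 0.09 (SD, n = 2 pools), with a limma interval of -0.41 to 0.28 that lay inside the fold band (adjusted p = 0.712).

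Apoa4, Apoa5 and Apoc3 lie side by side with Apoa1 on chromosome 9, in the order Apoa1, Apoc3, Apoa4 and Apoa5. Apoa4, which encodes an apolipoprotein of triglyceride-rich particles made in intestine and in fatty liver, was 1 of 2 genes above 0 on all 4 arrays at the brightest probe. Its ratios were 0.20 and 0.14 in the greater-loss pool and 0.12 and 0.23 in the less-loss pool. The pool means were both 0.17, with a mean of 0.17 ± 0.0019 (SD, n = 2 pools), or 1.13-fold. The limma interval ran from 0.12 to 0.22, below the 1.5-fold limit, and the adjusted p was 0.374. Among all probes with signal in all channels, 11.8% were above 0 on all 4 arrays and 16.1% below 0, against 3 and 1 of the 16 member probes.

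Apoa5 encodes the liver-specific apolipoprotein A-V. Its brighter probe gave 0.18 and 0.04 in the greater-loss pool and 0.19 and -0.02 in the less-loss pool. Its dimmer probe gave 0.19 and 0.31, then -0.06 and 0.28. Each probe had 1 array just below 0, and both were above 0 in both pool means. The means over the pools were 0.10 ± 0.02 (limma adjusted p = 0.414) and 0.18 ± 0.10 (adjusted p = 0.578; SD, n = 2 pools), or 1.07-fold and 1.13-fold.

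Apoc3 encodes the inhibitor of triglyceride clearance, and its overlapping probes both scattered about 0. Probe 1 gave 0.05 and 0.12 in the greater-loss pool and -0.14 and 0.09 in the less-loss pool. Probe 2 gave 0.13 and -0.07, then -0.25 and 0.02. The means of 0.03 ± 0.08 and -0.04 ± 0.10 (SD, n = 2 pools) had opposite signs, on the same RNA and with 50 bases in common. Their limma adjusted p-values were 0.879 and 0.878. With normexp background correction and loess, the mean of probe 1 was 0.07.

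Apob was read by 5 probes along the transcript, and they did not all give 1 direction. The adjacent probes 1 and 2, which are the brightest and lie nearest the 3′ end, were above 0 on all 4 arrays. Probe 1 gave 0.02 and 0.24 in the greater-loss pool and 0.08 and 0.08 in the less-loss pool (mean 0.11 ± 0.04). Probe 2 gave 0.05 and 0.24, then 0.24 and 0.09 (mean 0.16 ± 0.01, SD, n = 2 pools), or 1.11-fold. The limma adjusted p-values of these probes were 0.500 and 0.374. With normexp and loess the mean of probe 1 was 0.055.

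The 3 upstream Apob probes had means from -0.13 to -0.03. Probe 3 gave -0.43 and 0.19 in the greater-loss pool and -0.43 and 0.44 in the less-loss pool. Probe 4 gave -0.35 and -0.01, then -0.55 and 0.41. At both, the array with GALP in Cy5 lay below the array with GALP in Cy3 in each pool, by 0.34 to 0.96. Among all probes with signal this gap between dye orientations had a median of 0.20 and a 95th percentile of 0.71. Probe 5, which spans a splice junction (chr12:8005482-8007691), gave -0.03 and 0.09, then -0.27 and 0.10. The 1 single-array p-value under 0.01 among the probes other than those of Sort1 belonged to probe 4 (p-value of Agilent Feature Extraction 0.00926), whose dye-swapped partner had the opposite sign. The limma adjusted p-values of probes 3, 4 and 5 were 0.708, 0.631 and 0.908.

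Mttp encodes the lipid transfer subunit that loads apolipoprotein B. It was below 0 on all 4 arrays, the only gene of the 10 to be so at its brightest probe. Its ratios were -0.03 and -0.04 in the greater-loss pool and -0.25 and -0.16 in the less-loss pool. The mean was -0.12 ± 0.12 (SD, n = 2 pools), or 0.922-fold, with a limma interval of -0.55 to 0.31 and an adjusted p of 0.702. The lower end of that interval passes 0.75-fold, so a fall of that size was not excluded. With normexp and loess the mean was -0.20.

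Sort1 was the dimmest of the set. Its probe with signal in all channels (probe 1, chr3:108164349-108164408) had processed signals of 62.4 to 117, where the lowest signal called well above background on the arrays was between 22.4 and 47.6. That probe gave 0.28 and -0.22 in the greater-loss pool and -0.34 and -0.78 in the less-loss pool. The first pool straddled 0 and the second was below 0 on both arrays, with a mean of -0.27 ± 0.42 (SD, n = 2 pools) and a limma interval of -1.79 to 1.26 (adjusted p = 0.718). With normexp and loess the mean was -0.012, so its size depended on the processing. That setting changed background correction and dye normalization together, and neither was varied alone.

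The other 3 Sort1 probes were well above background in 2, 4 and 1 of the 8 channels. Probe 4 was below 0 on all 4 arrays, with ratios of -0.96 and -0.95 in the greater-loss pool and -0.63 and -1.51 in the less-loss pool. No GALP channel of this probe was well above background and 1 of 4 control channels was, so no fold can be given for it. The measured log2 means, mostly of signals near background, were 5.20 for control and 4.19 for GALP (limma adjusted p = 0.374). Probe 3 gave -0.03 and -1.08, then 0.21 and -0.67, and probe 2 gave -0.51 and 0.36, then 0.12 and 0.35. These ratios did not share a direction with probe 4 on every array, and Sort1 therefore had no settled direction at this signal. The paper lists SORT1 as lowered by GALP, and the probe behind that listing is not named there.

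Apoe and Apoc2 lie on chromosome 7 in a row with Apoc4 and Apoc1. Apoe, the receptor ligand of remnants, had ratios of 0.10 and -0.05 in the greater-loss pool and 0.07 and -0.08 in the less-loss pool. Both arrays with GALP in Cy5 were above 0 and both with GALP in Cy3 below 0, so the sign followed the dye and the pool means were 0.02 and -0.01. The mean was 0.01 ± 0.02 (SD, n = 2 pools), with a limma interval of -0.09 to 0.10 (adjusted p = 0.925). This interval lay wholly inside 0.75-fold to 1.5-fold, but it takes in neither the spread between control mice nor the gap between dye orientations.

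Apoc2, the cofactor of lipoprotein lipase, gave -0.03 and -0.09 in the greater-loss pool and 0.05 and -0.14 in the less-loss pool. The mean was -0.05 ± 0.01 (SD, n = 2 pools), with a limma interval of -0.12 to 0.01 (adjusted p = 0.472), and with normexp and loess it was -0.09. Its neighbour Apoc4 was at -0.05, -0.11, -0.10 and -0.07 on the same arrays, all below 0, and Apoc1 at 0.23, -0.05, 0.11 and -0.15, split by dye. No gene of this row passed either test.

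The comparison of the 2 GALP pools with each other rests on 1 pool a side and has no test. The greater-loss pool was the higher of the 2 at 10 of the 16 probes with signal and the lower at 6. The differences (greater minus less) ran from -0.13 at Apoa2 to 0.32 at Apoa1 among the 15 probes without Sort1, and the difference at Sort1 probe 1 was 0.59. Among all probes with signal, the 5th and 95th percentiles of this difference were -0.31 and 0.31. In the chromosome 9 row, Apoa1 differed by 0.32, Apoc3 by 0.11 and 0.14, and Apoa5 by 0.02 and 0.14, while the pools of Apoa4 were level. If both pools were set against 1 control pool, as the methods describe, their ratios are not independent.

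The members were then set beside 5 lists of related genes, taking the brightest probe of each gene. The median log2 ratio of the 10 members was -0.02, and over the 10671 genes with signal in all channels it was -0.01. At these probes 2 of 10 members were above 0 on all arrays, against 13.1% of all genes, and 1 of 10 below, against 14.8%. None of the 113 probes of the 5 lists passed the rule of the methods or an adjusted p under 0.05 in limma. An unadjusted limma p under 0.05 was found at 26 of them and at 4759 of all 41037 probes. Many of all probes lack signal, and among the 14453 probes with signal in all channels the share was 20.5%. List medians lay between -0.05 and 0.07.

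**Figure D4:**
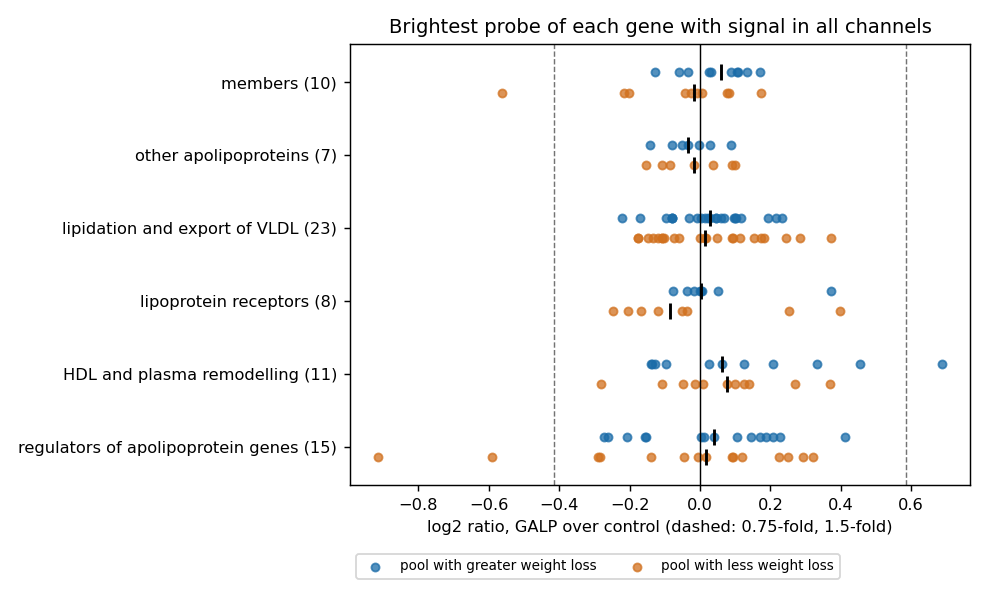
Log2 ratio (x axis) of each gene with signal in all channels in each GALP pool, at its brightest probe, for the members and 5 lists (number of genes in brackets); thick bars are medians and dashed lines the folds 0.75 and 1.5. The members' medians of 0.06 and -0.02 lie within the same narrow range as those of the lists, and the widest spread is among the regulators.

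Among the other apolipoproteins, 7 of 10 genes had signal in all channels, with a median of -0.02 and a range of -0.08 to 0.04. Apoc4 (mean -0.08) and Apof (mean -0.07), the latter a modulator of lipid transfer between lipoproteins, were below 0 on all arrays. For each gene named from the lists here and below, the same sign on all arrays at the brightest probe was a condition for naming it. All 23 genes of lipidation and export had signal, with a median of 0.02. On all arrays 5 (21.7%) were above 0 and 2 (8.7%) below 0, against 13.1% and 14.8% of all genes with signal. Dgat2, which makes triglyceride for VLDL, was above 0 on all 4 arrays at each of its 3 probes, with ratios of 0.28, 0.18, 0.35 and 0.14 at the brightest. The means of its probes were 0.24, 0.24 and 0.31, or 1.18-fold to 1.24-fold (limma adjusted p = 0.374 to 0.401). The carboxylesterases Ces1d (mean 0.25, adjusted p = 0.404 by limma) and Ces1g (mean 0.23 ± 0.20, SD, n = 2 pools; adjusted p = 0.702) had the same sign on all arrays, although the dimmer Ces1g probe was below 0 on 1 array. Aadac, a microsomal lipase proposed to supply VLDL lipid, was below 0 on all arrays (mean -0.20; limma adjusted p = 0.386).

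Of the lipoprotein receptors, 8 of 10 had signal, with a median of -0.05 and a range of -0.13 to 0.31. In HDL and plasma remodelling, 11 of 12 genes had signal, with a median of 0.04. Angptl4, an inhibitor of lipoprotein lipase, was above 0 on all arrays at 0.43, 0.24, 0.57 and 0.17, with a mean of 0.35 or 1.28-fold (limma adjusted p = 0.374). Lipc, which encodes hepatic lipase, was below 0 on all arrays at -0.11, -0.17, -0.31 and -0.25 (adjusted p = 0.547 by limma).

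All 15 regulators of apolipoprotein genes had signal, with a range of -0.53 to 0.35. On all arrays 5 (33.3%) were above 0 and 3 (20%) below 0, against 13.1% and 14.8% of all genes with signal. Foxo1, a forkhead factor that activates Mttp and Apoc3, had means of 0.35 and 0.32 at its probes (limma adjusted p = 0.419 and 0.481), and Foxa2 was at 0.26 (adjusted p = 0.451 by limma). The coactivator Ppargc1a had means of -0.28 and -0.38, and the nuclear receptor Nr5a2 of -0.27 (limma adjusted p = 0.374 for each). Foxo1 and Foxa2 were above 0, and Ppargc1a and Nr5a2 below 0, on every array, which at the brightest probe was a condition for naming them.

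Apoa4, Apob and Mttp are also expressed by enterocytes and Apoe by macrophages, so markers of other cell types were read on the same arrays. Of 8 enterocyte markers, 1 had signal in all channels, with log2 ratios of -0.28 and -0.19 in the greater-loss and less-loss pools. Vil1, Lct, Cdx2 and Cdx1 were not well above background in any channel, and the rest were in some channels only. The summed processed signal of this list was 19697 to 25769 in GALP channels and 22604 to 31218 in control channels. All 7 Kupffer cell and macrophage markers on the array had signal, with medians of 0.21 and 0.34 in the greater-loss and less-loss pools and summed signals of 25696 to 31393 for GALP and 22788 to 25547 for control. Adipocyte markers had signal at 2 of 5, with Lep and Retn not well above background in any channel. The 2 with signal had medians of 0.56 and 0.25 in the greater-loss and less-loss pools. Over both pools these 2 were far apart, at 0.06 and 0.75. The summed signal of the adipocyte list was 14660 to 17739 for GALP and 7832 to 12372 for control. None of the 3 kidney markers was well above background in any channel. The part of enterocyte, macrophage or adipocyte RNA in the members' ratios was not tested. In whole liver, fewer cells of a type and less RNA per cell cannot be told apart.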

How the data were processed

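Liver RNA was read on 4 two-colour Agilent 4x44K arrays. Per the file headers, the authors' scanner output held each spot's intensity in both dyes and, after background subtraction and LOWESS dye normalization, a log10 ratio of Cy5 over Cy3 with the p-value of its error model. The headers name Agilent Feature Extraction 12.0.3.1, and the submitters' processing notes name 11.0.1.1. The deposited series table repeated these log10 ratios with GALP as numerator.

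Ratios were turned to GALP over control, converted to log2, cleared of spots marked as outliers (232 to 319 per array) and averaged per probe. The 2 dye-swapped arrays of a pool carry the same extracts and count as 1 replicate. No array holds a single animal, so p-values measure only the spread between the 2 pools. The ratios of the pools were tested against 0 with limma 3.58.1 (R 4.3.3; lmFit and eBayes) with Benjamini-Hochberg adjustment over 41037 probes. Each probe had 1 residual degree of freedom before moderation. The rule of the methods was applied per probe. The p-value of Feature Extraction compares 2 labelled extracts of 1 array. The number of arrays limits the precision.

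Gene names are those of the array; all 19 accessions of the members matched the same symbol in the RefSeq table of GRCm38.p6, used for names and gene order only. All members and probes are named; in each list, genes are named that passed the rule or, up to 4, had the largest mean ratio at the brightest probe among those with signal in all channels and the same sign on all arrays; Apoc1 was added for its position. A gene that this rule names among the receptors is not reported here. The members and lists were chosen with earlier results of these data known. Alternatives covered background correction (normexp, offset 50, with loess), centring, the series table, outlier spots, filters, dye orientation, each pool alone, and the fit.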

Additional observations from a re-analysis of the deposited data

Results flagged for a closer look

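Apoa1 stood out because both arrays of the greater-loss pool were above 0 and both arrays of the less-loss pool were below 0, with a difference of 0.32 in log2 ratio between the pools. The difference was not tested, since each pool is 1 sample. Opposite signs of this kind occurred at 835 of the 14453 probes with signal in all channels (5.78%).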

How the results depend on the processing

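None of the member probes was called under the rule of the methods with centring on each array's median, the series table, all spots kept, a p-value under 0.01 on at least 1 array of each pool, either dye orientation alone or either pool alone (lowest 0, highest 0 without 1 pool). With no p-value rule, 1 member probe (the dim Sort1 probe 4) passed as lower, as did 0.877% of all probes. Of the list probes, 1 of Nr2f2 passed, as lower, under that looser p-value rule (0.407% of all probes did), and 1 with no such rule. It was named after its values were seen, and the brighter Nr2f2 probe had a mean of -0.10. limma called 0 member probes under each of its alternatives, including pool as a random block, which called 106 of all probes (0.258%), and normexp, which called 95 (0.231%). The median log2 ratio of the members was -0.016 in the less-loss pool alone and 0.059 in the greater-loss pool alone, where its sign turned. Centring on each array's median, the series table and the filter for signal could not move the mean of a single gene beyond rounding. Of 100 recomputed means of single genes, which include these settings, 9 changed sign. Of these, 4 were Apoc2 to 0.011 and Apoc3 to -0.043 with GALP in Cy5 only, and Apoe to -0.069 with GALP in Cy3 only and to -0.036 with normexp. The other 5 came with single pools, where Apoa2 ran from -0.13 to 0.0049, Apoc3 from -0.025 to 0.087 and Apoe from -0.0074 to 0.025, with the turned sign in the less-loss pool, and Apoa1 from -0.22 to 0.11 and Sort1 from -0.56 to 0.031, with the turned sign in the greater-loss pool. With normexp, Sort1 was at -0.012. At their brightest probes, Apoa4, Apoa5, Apob and Mttp kept their sign throughout. The upstream Apob probes had means on the other side of 0, from -0.13 to -0.03. Centring on the median of the probes with signal, chosen after seeing the data, left the members' median at -0.0024. No analysis by single mouse was possible because every array holds pooled RNA. Signal near background limits what can be read of Sort1.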
